A study of Mus musculus with 20 samples.

Results

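The promoters examined here are those of the main mouse histone gene cluster on chromosome 13. They were chosen by position on the GRCm39 build: promoter windows of 3500 bp that start between 21.85 and 22.26 Mb (block 1, 49 windows) or between 23.68 and 23.96 Mb (block 2, 45 windows). Together they make up 94 of the 54034 promoter windows of the study, and each had a value in at least 1 embryo. The 94 windows that start between these blocks, in a stretch rich in vomeronasal receptor genes, served as the comparison. DNA methylation was measured by bisulfite sequencing in 20 blastocysts of the mouse, each sequenced alone after its polyadenylated RNA had been removed. Of these, 10 were controls, numbered 1 to 10, and 10 were Padi6 mutants, numbered 11 to 20, which developed from oocytes with the P620A mutation of Padi6. The labels give no strain, age, sex, mother or litter for an embryo, and no further allele of the controls. Each embryo was treated as 1 replicate, so errors and p-values describe the spread between embryos, some of which may share a mother, and each value averages over all cell types of a blastocyst.

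Replication-dependent histone genes supply the core histones H2A, H2B, H3 and H4 and the linker histone H1 that package newly made DNA in S phase. They lie in clusters, many as divergent pairs that share a promoter region, and they are transcribed in dividing cells, where the factor NPAT gathers at them in histone locus bodies. Vomeronasal type 1 receptor genes (Vmn1r) encode pheromone receptors of sensory neurons and are silent in most other tissues. Promoters that are rich in CpG dinucleotides are usually unmethylated, whereas CpG-poor promoters of silent genes are often methylated. PADI6 is made in the oocyte, where it belongs to the subcortical maternal complex.

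The windows carry no gene names, and the reference tables at hand are on the older build GRCm38.p6, so no window is tied to a gene. Gene order in RefSeq on that build shows what such stretches hold. The first run, from H2bc13 to H2bc11, has 64 genes, of which 24 are histone genes, 31 are tRNA genes and 3 are other coding genes, Zfp184, Pom121l2 and Prss16. The second run, from H4c8 to H2ac1, has 44 genes, of which 32 are histone genes and 6 are other coding genes, among them Hfe and members of the Slc17a transporter family. The 147 genes between the runs include 75 Vmn1r genes, of which 39 are pseudogenes, and 46 tRNA genes. The last 59 of these 147 genes, next to the second run, hold no Vmn1r gene but 45 tRNA genes and the coding genes Zfp322a, Abt1, Btn1a1 and Btn2a2. The blocks defined by position can therefore also take in promoters of genes other than histone genes, and the stretch between them is not made of receptor genes alone.

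The promoter sequences below show the CpG content of a gene of each of the classes H2B, H3, H4 and H1 beside that of a vomeronasal receptor gene. They come from RefSeq on GRCm38.p6, whose coordinates cannot be compared with those of the GRCm39 windows. Each gives the 250 bases before the start of the gene, read 5′ to 3′, with every CG in capitals. H2bc14 lies at chr13:21721794-21722043 (plus strand), H3c10 at chr13:21717378-21717627 (plus strand), H4c17 at chr13:21811496-21811745 (plus strand), H1f1 at chr13:23763418-23763667 (plus strand) and Vmn1r191 at chr13:22179583-22179832 (minus strand).
H2bc14: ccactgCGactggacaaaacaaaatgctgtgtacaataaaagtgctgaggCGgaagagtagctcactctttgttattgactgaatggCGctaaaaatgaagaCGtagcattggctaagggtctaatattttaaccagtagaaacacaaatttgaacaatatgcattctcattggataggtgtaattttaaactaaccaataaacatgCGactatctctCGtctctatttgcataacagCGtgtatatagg
H3c10: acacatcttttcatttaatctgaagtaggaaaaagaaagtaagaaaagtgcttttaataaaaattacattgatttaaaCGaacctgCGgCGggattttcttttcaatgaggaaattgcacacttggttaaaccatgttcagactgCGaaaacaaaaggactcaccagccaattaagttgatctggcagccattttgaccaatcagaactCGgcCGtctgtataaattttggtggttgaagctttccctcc
H4c17: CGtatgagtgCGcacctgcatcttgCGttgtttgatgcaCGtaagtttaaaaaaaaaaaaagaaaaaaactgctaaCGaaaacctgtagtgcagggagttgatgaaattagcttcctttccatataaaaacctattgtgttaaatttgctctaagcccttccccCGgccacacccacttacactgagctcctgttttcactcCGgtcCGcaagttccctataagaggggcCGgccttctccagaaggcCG
H1f1: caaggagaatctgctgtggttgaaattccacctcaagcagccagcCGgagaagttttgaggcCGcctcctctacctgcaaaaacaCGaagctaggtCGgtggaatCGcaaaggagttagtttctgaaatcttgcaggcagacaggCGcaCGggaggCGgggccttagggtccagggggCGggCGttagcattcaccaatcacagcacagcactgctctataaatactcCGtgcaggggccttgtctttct
Vmn1r191: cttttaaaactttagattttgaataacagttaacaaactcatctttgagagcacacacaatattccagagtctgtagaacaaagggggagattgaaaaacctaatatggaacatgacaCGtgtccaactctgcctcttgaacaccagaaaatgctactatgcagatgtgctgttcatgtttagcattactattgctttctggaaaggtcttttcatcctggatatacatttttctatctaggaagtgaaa
The printed stretches hold 7 CG in H2bc14, 6 in H3c10, 10 in H4c17 and 11 in H1f1, against 1 in Vmn1r191.

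Over 300 bases around the start (250 before and 50 after), RefSeq gave 52 promoters for 51 histone genes of both runs. They held a median of 10.5 CpG (3 to 27), and the ratio of observed to predicted CpG had a median of 0.752. The 33 Vmn1r promoters of chromosome 13 held a median of 1 CpG (0 to 5) at a ratio of 0.107, and the 32851 promoters of all genes a median of 7 (0 to 67) at a ratio of 0.384. Only 4 of the 52 histone promoters (7.69%) held 5 or fewer CpG, compared with 33 of 33 Vmn1r promoters (100%) and 43.6% of all promoters. The ranges of the histone and the Vmn1r promoters overlap only between 3 and 5 CpG. By class, the median was 13.5 CpG for H1 (6 promoters), 9 for H2A (13), 9.5 for H2B (14), 8 for H3 (7) and 13 for H4 (11). The remaining promoter, that of H4bc24 with 17 CpG, was left without a class. It had the same CpG count, ratio and GC content as the promoter of H2bc23, so the same bases may be counted under both names. The divergent H2A and H2B pairs share promoter bases, so these promoters are not independent of each other.

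**Figure D1:**
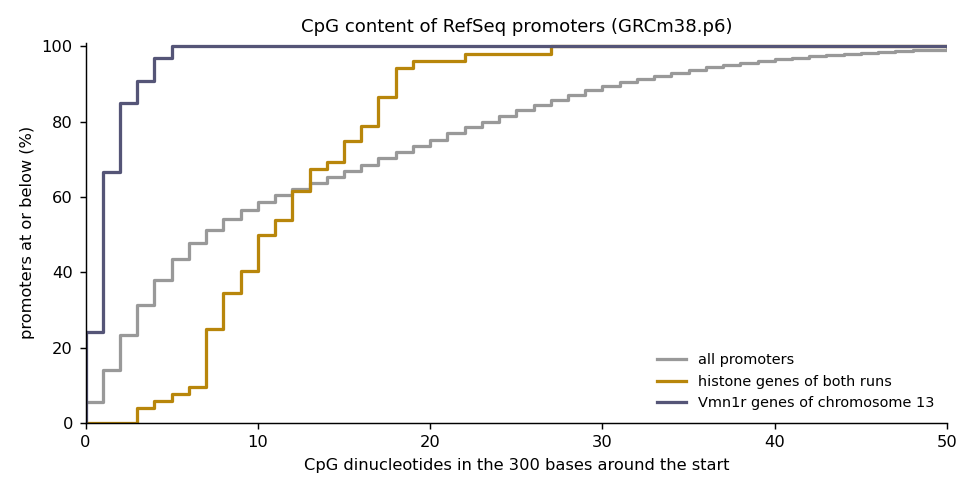
The share of RefSeq promoters (vertical axis, percent) that hold at most a given number of CpG dinucleotides in 300 bases around the start (horizontal axis, cut at 50), for 52 histone promoters, 33 Vmn1r promoters and all 32851 promoters. The Vmn1r curve has reached 100% at 5 CpG, where the histone curve stands at 7.69% and the curve of all promoters at 43.6%.

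Short promoter motifs were counted in the same 300 bases. CCAAT, the letters recognised by the factor NF-Y, was found on either strand in 44 of 52 histone promoters (84.6%), in 36.4% of the Vmn1r promoters and in 37.4% of all promoters. It was present in all 6 H1, 13 H2A, 14 H2B and 7 H3 promoters and in that of H4bc24, but in 3 of 11 H4 promoters (27.3%). TATAAA, a form of the TATA box, was found on either strand in 31 of 52 histone promoters (59.6%), in 27.3% of the Vmn1r promoters and in 13.6% of all promoters. Both motifs, whose matches can share a base at their edge, occurred together in 25 histone promoters (48.1%) and in 5.31% of all promoters. A match shows only that these letters occur in the 300 bases.

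Coverage differed widely between embryos and bears on every value that follows. Of the controls, 6 had a value in 37049 to 46950 windows (replicates 1 to 5 and 10) and 4 in 4984 to 17002. Of the mutants, 3 had a value in 38549 to 43812 windows (replicates 11, 12 and 14) and 7 in 2875 to 13847. The first kind is called densely covered here (20000 windows or more) and the second sparsely covered. Read counts behind a value are unknown. In the densely covered embryos, 77.5% ± 14.8 (SD, n = 6) of the histone windows had a value in controls and 79.4% ± 11.8 (SD, n = 3) in mutants, compared with 58.3% and 61.0% of the vomeronasal windows and 79.1% and 76.5% of all windows. A histone window had a value in a median of 9 embryos and a vomeronasal window in a median of 6, where the median over all windows was 10. Levels were computed over windows read in 3 or more embryos of both groups, which 71 of the 94 histone windows (37 in block 1 and 34 in block 2), 38 of the 94 vomeronasal windows and 37645 of all windows met. Many histone windows overlap each other: 48 of the 94 remain when overlapping ones are removed.

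Promoter windows of the histone blocks were mostly unmethylated in both groups. Over the 71 windows the mean of the control and mutant means had a median of 2.99% (quartiles 1.34% and 9.05%), against 15.6% over the 38 vomeronasal windows and 10.3% over all windows. It was under 5% in 44 of 71 histone windows (62.0%), in 5 of 38 vomeronasal windows (13.2%) and in 27.2% of all windows. It lay between 5% and 20% in 24 histone windows, between 20% and 50% in 3, and in none at 50% or more. Without overlapping windows, the median of the remaining 34 histone windows was 4.40%, and 17 of them (50.0%) were under 5%. Taken apart, 45 of the 71 histone windows (63.4%) were under 5% in controls and 56 (78.9%) in mutants, where the same shares over all windows were 32.1% and 36.2%. Mutant means rest on fewer embryos per window, so a mean near 0 can be reached with fewer values.

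**Figure D2:**
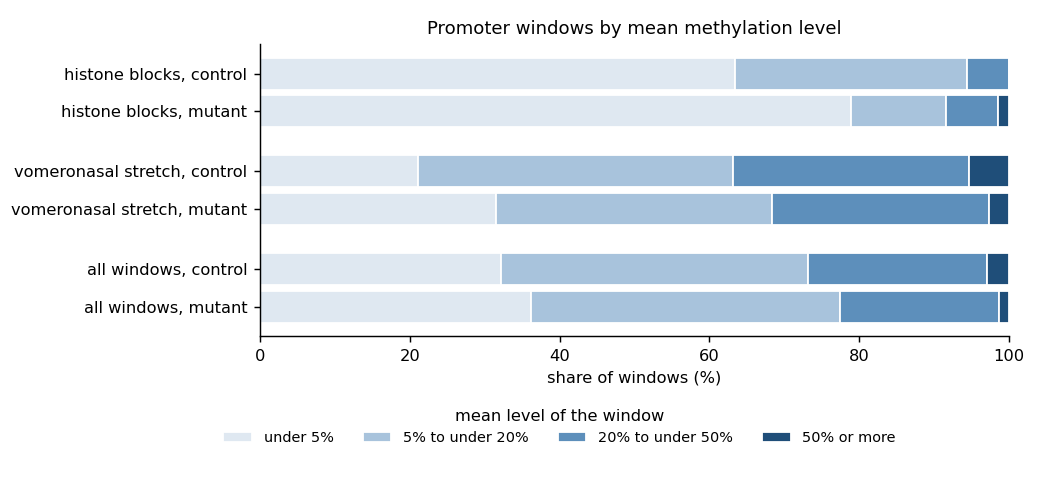
The share of promoter windows (horizontal axis, percent of windows) whose mean methylation falls in each of 4 classes, for the 71 histone windows, the 38 vomeronasal windows and all 37645 windows, by group. The lightest class, under 5%, takes up 63.4% of the histone windows in controls and 78.9% in mutants, compared with 21.1% and 31.6% of the vomeronasal windows.

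Values of exactly 0, pooled over the embryos of a group, were most frequent in the histone windows. They made up 336 of 513 control values (65.5%) and 211 of 313 mutant values (67.4%) in the histone windows, compared with 51.5% and 56.5% in the vomeronasal stretch and 45.0% and 54.5% over all windows. The vomeronasal stretch thus held a larger share of them than all windows, although its levels were higher. In 2 of 20 embryos, control replicate 7 and mutant replicate 12, the share was lower in the histone windows than in the vomeronasal stretch. Values of exactly 100% were rare in the histone blocks, at 3 of 513 control values (0.585%) and 4 of 313 mutant values (1.28%). Over all windows their shares were 2.28% and 2.49%, and in the vomeronasal stretch 4.63% and 3.88%.

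Mean levels varied along the blocks. In controls, the 13 windows that start between 21900000 and 21999999 in block 1 averaged 2.88%, and the 15 that start between 23700000 and 23799999 in block 2 averaged 2.72%. The mutant means of these stretches were 4.23% and 1.29%. Higher levels were found in the inner part of block 1, at 14.5% in controls and 10.1% in mutants over 5 windows between 22000000 and 22099999, and at 11.5% and 8.41% over 8 windows between 22100000 and 22199999. In block 2 the 5 windows between 23800000 and 23899999 averaged 15.4% in controls and 2.04% in mutants. The 13 windows from 23900000 on averaged 3.6% and 11.6%, the opposite order. These averages rest on overlapping windows with few embryos each, and their differences were not tested as such.

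**Figure D3:**
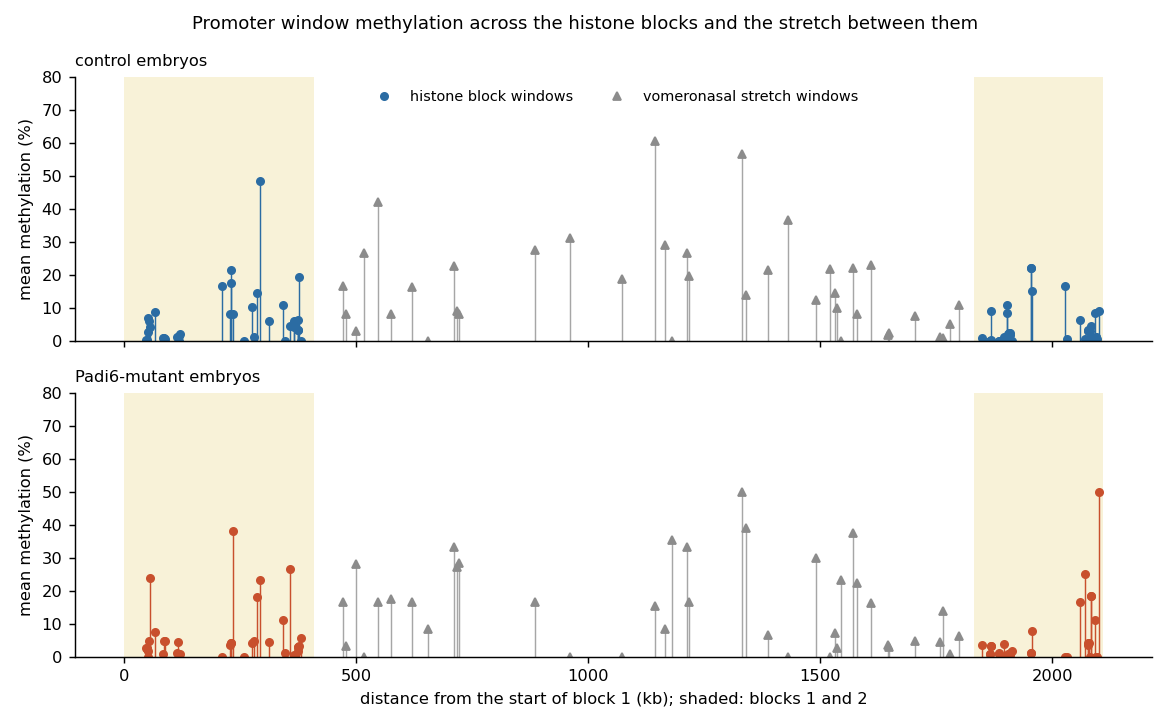
Mean methylation (vertical axis, percent) of each promoter window read in 3 or more embryos of both groups, by distance from the start of block 1 (horizontal axis, kb), in controls (top) and Padi6 mutants (bottom). Circles are histone block windows on a shaded ground and triangles are vomeronasal windows, and most circles lie near 0, with 48.6% the highest in controls and 50.0% in mutants.

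The level of each embryo over the 71 histone windows was then compared between groups. It was computed as the embryo's mean deviation from the mean of each window, added to the mean over windows, so that embryos with different windows can be compared; in sparsely covered embryos it can fall below 0. In controls the lowest level was -3.51%, the median 4.75% and the highest 15.4%. In mutants the lowest was -1.84%, the median 4.92% and the highest 18.8%. The groups overlapped over nearly their whole range, and 5 of 10 mutants lay below the control mean. Controls averaged 5.11% ± 4.76 (SD, n = 10) and mutants 5.40% ± 5.65 (SD, n = 10), which puts mutants higher by 0.292 percentage points (SE 2.34). A difference between the groups was therefore not detectable over the histone blocks, and its standard error leaves room for several points in either direction.

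The densely covered embryos gave far tighter values. The controls with dense coverage stood at 7.96%, 6.66%, 5.21%, 4.61%, 4.36% and 4.89% (replicates 1, 2, 3, 4, 5 and 10), and the mutants at 5.54%, 5.14% and 4.71% (replicates 11, 12 and 14). All 3 mutants lay inside the control range. Their means were 5.13% ± 0.412 (SD, n = 3) in mutants and 5.61% ± 1.40 (SD, n = 6) in controls, so that mutants differed by -0.487 points (SE 0.621). The lowest and the highest level of each group, given above, came from sparsely covered embryos.

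Each block was also compared alone, over all embryos and over the densely covered ones. In block 1 the controls averaged 7.14% ± 6.32 (SD, n = 9) and the mutants 8.32% ± 9.58 (SD, n = 10), so that mutant minus control was 1.19 points (SE 3.69), less than the spread between embryos. This value depended on the settings, at 6.66 points without overlapping windows and -1.81 points for embryos with at least 10 windows. In densely covered embryos block 1 averaged 6.17% ± 3.03 (SD, n = 6) for controls and 4.96% ± 0.747 (SD, n = 3) for mutants, with mutant minus control at -1.21 points (SE 1.31). A plain mean over every block 1 window that such an embryo had, with no filter on windows, gave 7.26% ± 2.23 (SD, n = 6) for controls and 4.19% ± 0.663 (SD, n = 3) for mutants, or -3.07 points (SE 0.989). By that measure the highest of the 3 mutants, 4.75%, lay below the lowest control, 5.23%, so the groups did not overlap; plain means compare embryos over different windows. In block 2 the controls averaged 4.33% ± 3.68 (SD, n = 10) and the mutants 3.12% ± 5.42 (SD, n = 8), so that mutant minus control was -1.21 points (SE 2.24), also less than the spread. In densely covered embryos it was 0.439 points (SE 0.728), and by their plain mean 0.591 points (SE 1.02). Embryos with fewer than 3 windows in a block were left out there. Over all windows the mutants were at 13.2% ± 2.81 (SD, n = 10) and the controls at 15.0% ± 2.53 (SD, n = 10), which is a mutant minus control value of -1.81 points (SE 1.2). Window by window, the mutant mean was lower than the control mean in 37 of the 71 histone windows (52.1%), higher in 32 and equal in 2, with a median difference of -0.49 points. Over all windows it was lower in 55.8%, with a median difference of -1.07 points.

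Within an embryo, the histone blocks were less methylated than the vomeronasal stretch. Over the vomeronasal stretch controls averaged 15.6% ± 6.11 (SD, n = 9) and mutants 18.1% ± 10.5 (SD, n = 8), so that mutant minus control was 2.53 points (SE 4.23). In densely covered embryos the order was the reverse, at 17.3% ± 4.15 (SD, n = 6) for controls and 14.9% ± 6.17 (SD, n = 3) for mutants. Mutant minus control there was -2.35 points (SE 3.94). The histone level was the lower of the pair in 15 of the 17 embryos that had both, in 9 of 9 controls and 6 of 8 mutants. The exceptions were the sparsely covered mutant replicates 15 and 19, where the histone level exceeded the vomeronasal level by 1.12 and 1.71 points. The mean of histone minus vomeronasal was -9.49 points ± 5.10 (SD, n = 9) for controls and -11.8 points ± 11 (SD, n = 8) for mutants. The mutant value differed from the control value by -2.29 points (SE 4.26), less than the spread between embryos of either group. In the densely covered embryos the histone level was lower in 9 of 9, with means of -11.7 points ± 4.18 (SD, n = 6) for controls and -9.79 points ± 6.52 (SD, n = 3) for mutants. Against all windows, the histone level was lower in 19 of 20 embryos, at -9.88 points ± 3.74 (SD, n = 10) for controls and -7.77 points ± 6.07 (SD, n = 10) for mutants.

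**Figure D4:**
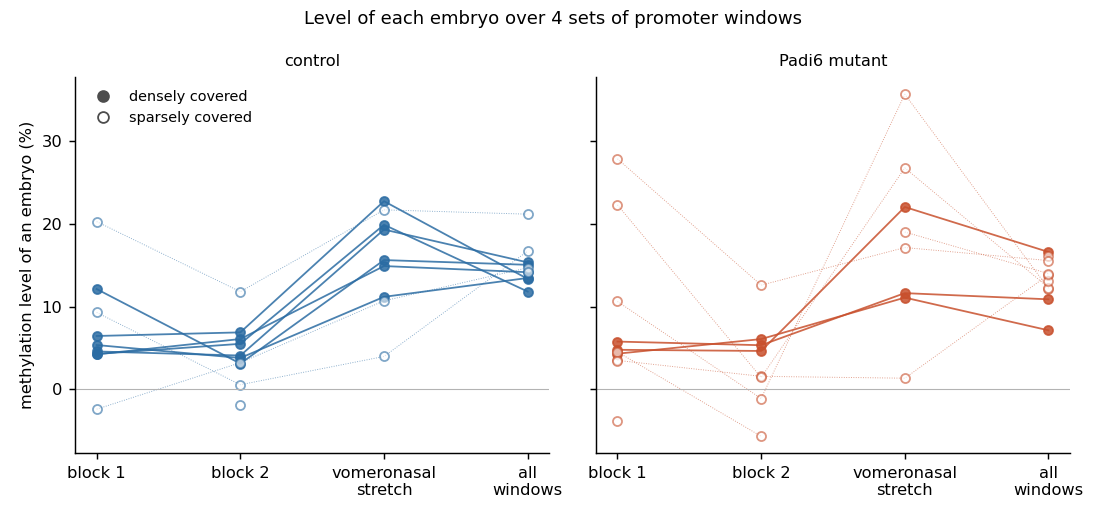
The methylation level of each embryo (vertical axis, percent) over block 1, block 2, the vomeronasal stretch and all windows, for controls (left) and Padi6 mutants (right), with 1 line per embryo, filled points for dense and open points for sparse coverage, and no point where an embryo had fewer than 3 windows. In each of the 9 embryos with filled points, both histone blocks lie below that embryo's vomeronasal stretch, with block 1 of control replicate 1 the highest filled histone point at 12.1%; open points scatter from below 0 to 35.6%.

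The contrast with the vomeronasal stretch did not extend to its end nearest block 2. The 31 vomeronasal windows that start before 23.48 Mb had a median of 18.9% in controls and 16.7% in mutants. The 7 windows that start from 23494695 to 23649572 had a median of 2.31% in controls (0.901% to 10.9%) and 4.58% in mutants (0.893% to 13.9%). The histone level was below the level of these 7 windows in only 3 of the 11 embryos that had both. Without them, histone minus vomeronasal came to -12.36 points in controls and -12.13 points in mutants. The boundary at 23.48 Mb was chosen after the values were seen.

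Single windows were tested with limma over the whole table, with Benjamini-Hochberg adjustment over all windows tested. In 4 histone windows, 2 in each block, 7 or more embryos of both groups had a value, and none of the 4 passed an adjusted p under 0.05, where 0.185% of the 1620 windows tested did. By unadjusted p under 0.05 it was 2 of 4, both lower in mutants and both with the same values, as described next, where 5.68% of the 1620 windows passed. With at least 3 embryos per group, none of 71 histone windows passed the adjusted threshold, where 0.0372% of 37645 windows did. At that filter 3 of 71 had an unadjusted p under 0.05, 2 lower and 1 higher, a share close to the 5.75% of all windows. The smallest adjusted p of a histone window by limma was 0.288 with the first filter and 0.498 with the second. On simulated data, the test over 1620 windows found 41 of 100 windows raised by 20 points and 4 of 100 lowered by 20 points. The raised windows were drawn at random below a set mean level, while the lowered ones were those with the highest means. A loss of this size was thus seldom found in highly methylated windows. These counts do not compare gain with loss, and losses in windows as low as most histone windows were not simulated.

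The windows with the 2 unadjusted calls are chr13:23804533-23808032 and chr13:23804608-23808107 in block 2, which lie 75 bp apart and carry the same value in every embryo; the first is called window A here. Controls read 25%, 50.0%, 28.6%, 5.56%, 15.9%, 30.8% and 0%, a mean of 22.3% ± 16.9 (SD, n = 7). Mutants read 0% in 6 embryos and 8.70% in replicate 14, a mean of 1.24% ± 3.29 (SD, n = 7). All but 2 of the 7 controls lay above every mutant, and the groups overlapped at the low end. The difference was -21.0 points (SE 6.26), with an adjusted p of 0.288 by limma with Benjamini-Hochberg adjustment. In densely covered embryos alone, it was 25% ± 16.6 (SD, n = 5) against 2.90% ± 5.02 (SD, n = 3).

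Close to it, window B at chr13:23806042-23809541 read 0%, 25%, 35.7%, 0%, 5.26% and 25% in controls and 16.7%, 0%, 0% and 14.3% in mutants. Its means were 15.2% ± 15.3 (SD, n = 6) and 7.74% ± 8.99 (SD, n = 4), and the groups overlapped. Window C at chr13:23876797-23880296 read 0%, 14.3%, 20.0%, 15.0%, 50.0% and 0% in controls, a mean of 16.5% ± 18.4 (SD, n = 6). All 5 mutants with a value there were at 0%, as were 2 of the 6 controls. The opposite order was found in window D at chr13:23950896-23954395, near the end of block 2. Controls read 16.7%, 12.5%, 0%, 0% and 16.7% there, a mean of 9.17% ± 8.54 (SD, n = 5). Mutants read 100%, 50.0%, 0% and 50.0%, a mean of 50.0% ± 40.8 (SD, n = 4), which made it the histone window with the highest mutant mean. The difference of 40.8 points (SE 17.1) had an adjusted p of 0.834 by limma with Benjamini-Hochberg adjustment. Windows B and D fall outside the rule for named windows and were chosen after their values were seen.

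**Figure D5:**
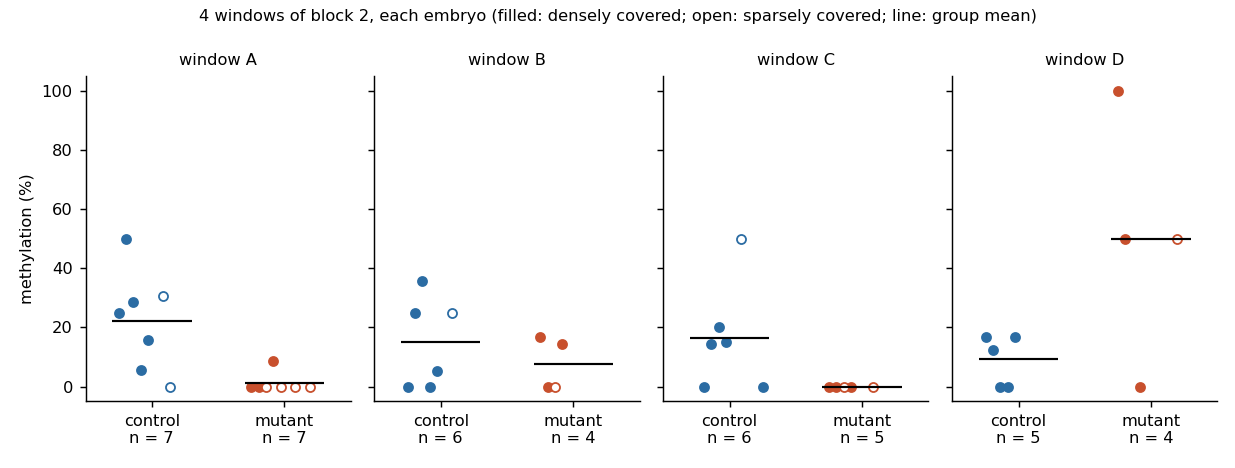
Methylation (vertical axis, percent) of each embryo with a value in windows A, B, C and D of block 2, for controls and Padi6 mutants, with filled points for dense coverage, open points for sparse coverage and a line at each group mean. Mutant points lie at or near 0 in windows A and C, and reach 100% in window D.

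The tile of 100 kb that holds windows A to C gave the same order without passing the threshold. It pools these same windows and the copy of window A, so it is not independent of them. Tiles pool the windows of a fixed stretch in each embryo and were fitted with limma over the genome. The tile from 23800000 to 23899999 (5 windows) averaged 12.6% ± 11.7 (SD, n = 9) for controls and 0.843% ± 4.39 (SD, n = 8) for mutants, and mutant minus control was -11.8 points (SE 4.55). Its adjusted p was 0.628 by limma with Benjamini-Hochberg adjustment. Of the 3 tested tiles that lie wholly in the histone blocks, none passed the adjusted threshold, where 0.0587% of 3408 tiles did. Of these 3, 1 had an unadjusted p under 0.05, where 7.45% of all tiles did. The tiles from 22000000 and from 22100000 also lie wholly in block 1. Fewer than 7 mutants had a value in each, so they were not tested. The neighbouring tile from 23700000 (15 windows) averaged 1.83% ± 2.34 (SD, n = 10) for controls and 1.54% ± 2.93 (SD, n = 8) for mutants. The tile from 21900000 in block 1 (13 windows) stood at 2.12% ± 3.17 (SD, n = 9) and 5.93% ± 14 (SD, n = 10). Neither of these differed beyond the spread between embryos.

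The other histone windows read in 5 or more embryos of both groups were low in nearly every embryo. In block 1, chr13:21899814-21903313 was at 0% in all 7 controls and in 6 of 7 mutants, with 18.5% in mutant replicate 12. The overlapping window chr13:21898829-21902328 averaged 0.242% ± 0.641 (SD, n = 7) for controls and 2.46% ± 6.52 (SD, n = 7) for mutants, where the same mutant read 17.2%. Further along, chr13:21970889-21974388 stood at 2.10% ± 2.52 (SD, n = 8) and 0.926% ± 2.27 (SD, n = 6). These 3 windows and the pair at window A had a value in 14 embryos, the most of any histone window. The block 1 window chr13:21900475-21903974 averaged 2.78% ± 6.80 (SD, n = 6) for controls and 1.79% ± 4.72 (SD, n = 7) for mutants. An exception in block 1 was chr13:21905479-21908978, at 4.40% ± 4.09 (SD, n = 5) for controls and 24.0% ± 43.0 (SD, n = 5) for mutants, where mutant replicate 16 alone read 100%. In block 2, chr13:23746044-23749543 stood at 1.17% ± 1.93 (SD, n = 6) and 3.97% ± 5.56 (SD, n = 5), and chr13:23754895-23758394 at 2.21% ± 4.14 (SD, n = 8) and 0.769% ± 1.72 (SD, n = 5). Their differences lay within the spread between embryos. Window chr13:23754895-23758394 falls outside the rule for named windows. Of the 13 windows, 9 had a mean of both groups under 5%.

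The highest mean of both groups in the histone blocks, 35.9%, belonged to chr13:22141794-22145293 in block 1. Controls read 100%, 50.0%, 16.7%, 50.0%, 0%, 100% and 23.5% there, a mean of 48.6% ± 39.4 (SD, n = 7). Mutants read 18.2%, 25%, 50.0% and 0%, a mean of 23.3% ± 20.7 (SD, n = 4). The controls spanned the full scale and every mutant lay inside their range. For comparison, only 2 vomeronasal windows were read in 5 or more embryos of both groups. Of these, chr13:23340482-23343981 stood at 12.5% ± 21.7 (SD) in controls and 30.0% ± 44.7 (SD) in mutants, and chr13:23614693-23618192, in the low end next to block 2, at 0.901% ± 1.40 (SD) and 13.9% ± 22.2 (SD).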

How the data were processed

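Per the submitters' processing notes, the tools behind the bisulfite sequencing data of the 20 blastocysts were Trim Galore 0.4.4 and Bismark 0.18.2, on GRCm39 (mm39). The deposited values are percent methylation, with a promoter window per line and an embryo per column. The sources used here do not give how calls were merged in a window, a coverage minimum or the choice of windows. Read numbers are not part of the deposited percent values, so depth is unknown and no binomial interval was computed.

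Of 54080 lines, 46 repeated another and were dropped, which left 54034 windows. Of 491705 values, 1594 (0.324%) exceeded 100, and were divided by 1000 on the reading that their decimal point was lost. The histone blocks, the stretch between them and the gene lists were chosen with earlier results of these data known. Levels per embryo used windows read in 3 or more embryos per group and embryos with at least 3 such windows. Single windows (at least 7 embryos per group) and tiles of 100 kb (at least 3 windows, and 7 embryos per group) were fitted on the untransformed percent with limma 3.58.1 in R 4.3.3, Benjamini-Hochberg adjusted over all windows or tiles, at an adjusted p under 0.05. Python 3.11.15, numpy 2.4.6 and pandas 2.3.3 did the rest.

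Tested on simulated data, the fit of 1620 windows found 79 of 100 windows raised by 40 points, and 15 of 100 where the change was a loss of that size. The fit of 3408 tiles recovered 90 and 29 of 100 at the same size. In both fits the raised windows or tiles were drawn at random below a set mean level, while the lowered ones had the highest means. Named windows were those past the threshold, the 6 with the highest mean and the 6 with the largest difference among windows read in 5 or more embryos per group, and those read in the most embryos. Where others are named, the text says so or they were named as the highest of the blocks. Alternatives changed the embryo and window minimum, the overlap of windows, the repaired values, the limma settings and the embryos used. RefSeq promoter sequences and gene order are on GRCm38.p6, so gene lists were not analysed here by methylation, and the tissue label could not be checked against expressed markers.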

Additional observations from a re-analysis of the deposited data

Results flagged for a closer look

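Among the 10 mutants, replicate 19 stood apart from the rest in its level over the histone blocks. It reached 18.8%, the next highest mutant 8.63%, and the gap between them was 0.494 of the range of the group, above the critical value of 0.466 for 10 samples. It is a sparsely covered embryo, and 11 of its 16 histone values were 0. The others were 50.0% at chr13:22137299-22140798, 50.0% at chr13:22141794-22145293, 100% at chr13:22207869-22211368, 100% at chr13:23919791-23923290 and 50.0% at chr13:23950896-23954395. At the windows that start at 22207869 and 23919791, the other mutants read at most 6.25% and 0%, and the controls at most 14% and 5.88%. Without this embryo, the mutant minus control difference over the histone blocks was -1.95 points instead of 0.29. Of 12 groups of embryos checked in this way 1 stood out, and chance alone gives about 1 in 20.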

How the results depend on the processing

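No histone window or tile passed limma's adjusted threshold under any alternative run. The mutant minus control difference over the histone blocks stayed within the spread between embryos except with few windows: -11.65 points over the 4 windows with at least 7 embryos per group, and -11.77 points in block 2 over the 6 windows with at least 5. Both small sets hold window A and its copy. Over the whole table, limma called 3 windows, against 14 with at least 3 embryos per group and 0 with at least 5 or with trend and robust settings. It called 2 tiles, against 3 with at least 5 windows per tile, 1 without overlapping windows and 0 with densely covered embryos alone. Leaving out each embryo in turn gave differences between -1.95 (without mutant replicate 19) and 1.48 (without control replicate 7) for the histone blocks, -1.54 to 3.22 for block 1, -3.18 to -0.12 for block 2 and 0.48 to 7.08 for the vomeronasal stretch. Histone minus vomeronasal then ranged from -10.25 to -4.52 in controls and from -13.37 to -9.8 in mutants, and its mutant minus control difference from -6.7 to -0.59. The control value was -4.62, -5.89 and -4.52 without mutant replicates 11, 12 and 14, where fewer windows had 3 embryos per group. Leaving out a control kept it between -10.25 and -8.88, so it depended on the windows used. Of the values recomputed under other settings, 183 differed from the reported ones by less than the spread between embryos or, for counts, by at most 1.5 times, and 7 did not. The same held for 18 values under settings chosen after seeing the data (at least 1 or 10 windows per embryo, vomeronasal windows before 23.48 Mb). Mutant minus control differences changed sign between settings. Over the histone blocks the difference was -2.47 with at least 5 embryos per group and 1.19 without overlapping windows. It was -0.36 with dense embryos and windows chosen among them. For block 1 it was 6.66 without overlapping windows and -1.81 with at least 10 windows per embryo. For block 2 it was 0.66 without overlapping windows. For the vomeronasal stretch it was -1.25 with dense embryos, -2.32 with at least 1 window per embryo and -1.80 with at least 10. The mutant minus control difference of histone minus vomeronasal was 0.89 with dense embryos and 4.74 with at least 10 windows per embryo. Histone minus vomeronasal itself stayed negative in both groups under these settings. Leaving out the repaired values moved no difference over the histone blocks. Sparsely covered embryos alone left too few windows with 3 embryos per group; over the 71 windows chosen on all embryos they differed by 1.17 points (SE 4.76). No value could be given with 0 and 100 left out, with at least 7 embryos per group for a block alone, or with at least 5 or 7 for the vomeronasal stretch. No paired analysis was possible because the groups share no replicate number (1 to 10 and 11 to 20). The unknown read depth, and the 9 embryos with dense coverage, limit every value.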
